A study of Homo sapiens with 6 samples.

Results

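The 6 Iroquois genes, IRX1 to IRX6, were followed across H3K4me3 and H3K27me3 peaks of human neural progenitors that had been differentiated toward midbrain dopamine neurons for 11 days. Each gene was given 1 fixed window on hg19 of 24 to 31 kb, and every peak that overlapped a window by at least 1 bp was a member. There were 161 such peaks among the 142800 peaks of 4 lists: 24 of 46793 for H3K4me3 in Boost-Chir, 34 of 44022 for H3K4me3 in Low-Chir, 52 of 26260 for H3K27me3 in Boost-Chir and 51 of 25725 for H3K27me3 in Low-Chir. The windows were set by position, but they were chosen with earlier results of these data known.

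All cultures were grown from H9 (WA-09), a human embryonic stem cell line in wide use, in medium with SHH C25II, LDN, SB431542, the Rock inhibitor Y-27632 and CHIR99021, a GSK3 inhibitor that activates canonical WNT signalling. Boost-Chir cells were given 7.5 µM CHIR99021 between day 4 and day 10. For Low-Chir cells the concentration in that period was not stated beyond a protocol whose lowest concentration is 0.7 µM. Both conditions started in 0.7 µM, had SHH C25II, LDN and SB431542 withdrawn before day 10, and on day 10 were changed to 3 µM CHIR99021 with BDNF, GDNF, TGFβ3, ascorbic acid and dibutyryl cAMP. Chromatin immunoprecipitation and sequencing was done in 1 library per mark and condition, with 1 input library per condition that was not analysed here. No difference between the cultures therefore has a replicate check, and no p-value was computed. All libraries are bulk cultures of 1 cell line, so a change in every cell and a change in the share of cells cannot be told apart. The labelled cell type was not checked against marker genes, since no hg19 annotation was used here.

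Iroquois genes encode homeodomain transcription factors of the TALE class that divide the neural tube, heart and other organs into territories. In human they form 2 clusters of 3 genes, IRXA on chromosome 5 (IRX4, IRX2 and IRX1) and IRXB on chromosome 16 (IRX3, IRX5 and IRX6), which arose by duplication, so that IRX1 and IRX3, IRX2 and IRX5, and IRX4 and IRX6 are paralogs. In vertebrate embryos several of them are expressed in the midbrain and hindbrain, behind the forebrain. H3K4me3 marks active and poised promoters, and H3K27me3 is the mark of Polycomb repressive complex 2.

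RefSeq promoter sequences were at hand for IRX4, IRX2 and IRX1, and they are printed because the 3 genes are neighbours with different main marks. Each line holds 250 bases before and 50 bases after an annotated start, 5′ to 3′, with CpG dinucleotides in capitals. IRX4 has several annotated starts, and its first listed one is shown. The coordinates beside the sequences are on GRCh38.p14 and cannot be set against the hg19 positions given for peaks.
IRX4 (GRCh38.p14 chr5:1886896-1887195, minus strand): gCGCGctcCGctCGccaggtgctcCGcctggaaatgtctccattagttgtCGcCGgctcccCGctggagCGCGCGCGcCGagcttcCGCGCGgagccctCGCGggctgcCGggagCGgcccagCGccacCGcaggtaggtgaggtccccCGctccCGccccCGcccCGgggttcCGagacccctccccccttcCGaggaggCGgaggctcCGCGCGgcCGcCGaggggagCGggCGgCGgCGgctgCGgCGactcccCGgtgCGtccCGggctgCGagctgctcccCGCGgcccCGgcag
IRX2 (GRCh38.p14 chr5:2751628-2751927, minus strand): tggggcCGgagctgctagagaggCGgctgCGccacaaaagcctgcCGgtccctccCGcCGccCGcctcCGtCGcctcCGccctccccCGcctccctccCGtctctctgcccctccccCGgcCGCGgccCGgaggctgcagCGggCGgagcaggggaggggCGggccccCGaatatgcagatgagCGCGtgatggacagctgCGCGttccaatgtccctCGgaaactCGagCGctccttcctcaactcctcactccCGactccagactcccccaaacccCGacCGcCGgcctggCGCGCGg
IRX1 (GRCh38.p14 chr5:3595582-3595881, plus strand): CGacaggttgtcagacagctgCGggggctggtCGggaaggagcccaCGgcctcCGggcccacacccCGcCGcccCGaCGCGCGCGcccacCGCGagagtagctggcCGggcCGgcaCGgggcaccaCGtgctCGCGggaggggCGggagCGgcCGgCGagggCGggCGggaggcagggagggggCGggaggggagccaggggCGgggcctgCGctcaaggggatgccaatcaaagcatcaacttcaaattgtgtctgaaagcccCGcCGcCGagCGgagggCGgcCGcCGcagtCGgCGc

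All 3 sequences are dense in CpG. IRX4 holds 47 CpG, more than 97.6% of the 35114 promoters of the table, IRX2 holds 34, more than 84.4%, and IRX1 holds 38, more than 90.1%, while the median promoter holds 14. The other IRX4 promoters of the table hold 36 and 44 CpG, so that the 3 IRX4 promoters span a range that includes the IRX1 value. The letters CTTTGA, the core of TCF/LEF sites through which WNT signalling acts on genes, were searched on both strands. They occur 1 time, in the IRX1 promoter, and 12.9% of all promoters hold them. The letters ACANNTGT, a palindrome bound by Iroquois proteins, occur in 0 of the 5 promoters listed for these genes, and 5.62% of all promoters hold them. A match of letters describes the sequence and is not a measured site.

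By covered length, a first group (IRX1, IRX2, IRX3 and IRX5) had more H3K4me3 than H3K27me3 in both cultures. A second group (IRX4 and IRX6) had more H3K27me3. The groups were formed from these same lengths. At IRX1 in Low-Chir the marks were nearly equal, with 6.73 kb of H3K4me3 and 6.54 kb of H3K27me3. In the first group, H3K4me3 peaks covered 37.7 kb in Boost-Chir and 33.9 kb in Low-Chir, and H3K27me3 peaks 12.7 kb in Boost-Chir and 17.6 kb in Low-Chir. In the second group, H3K4me3 covered 2.41 kb in Boost-Chir and 2.18 kb in Low-Chir, and H3K27me3 35.8 kb in Boost-Chir and 38.9 kb in Low-Chir. Each cluster thus held an outer gene with more H3K27me3 and a pair of genes with more H3K4me3. The outer genes IRX4 and IRX6 are paralogs of each other.

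**Figure D1:**
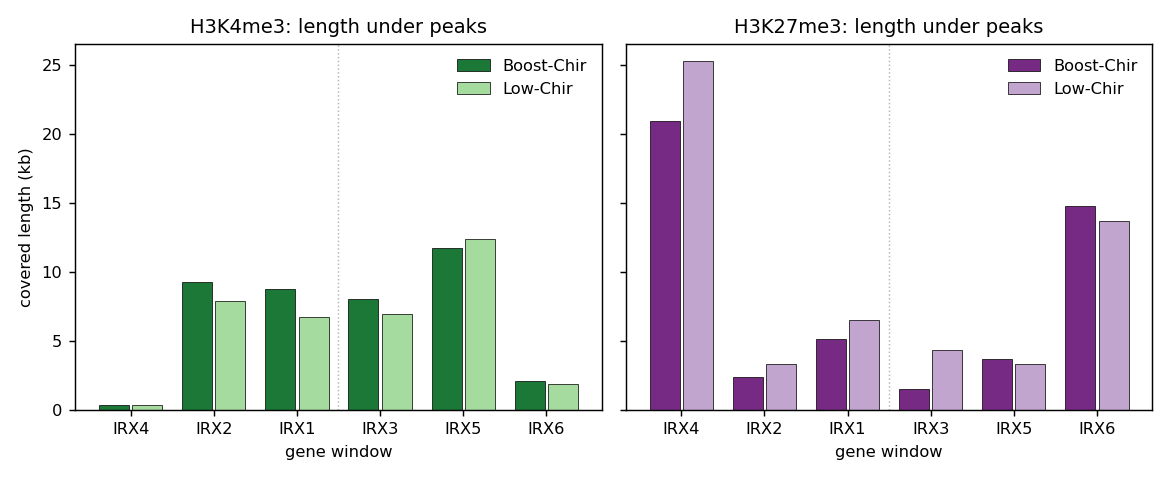
Length under peaks (kb, y axis) in each gene window for H3K4me3 and H3K27me3, with Boost-Chir and Low-Chir side by side and 1 library per bar, so no error bar. IRX4 and IRX6 stand out for H3K27me3, with 21.0 and 14.8 kb in Boost-Chir, and the other genes for H3K4me3, with 8.02 to 11.7 kb in Boost-Chir.

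IRX5, which in human is mutated in a disorder of the face and heart (Hamamy syndrome), had the longest H3K4me3. Within 54954001 to 54979000 of chromosome 16 the mark covered 11.7 kb in 3 peaks in Boost-Chir and 12.4 kb in 4 peaks in Low-Chir. The longest peak measured 8.06 kb in Boost-Chir, longer than 99.8% of its list, and 6.27 kb in Low-Chir, longer than 99.9% of its list. The shared length was 11.4 kb, which is 97.8% of the Boost-Chir and 92.5% of the Low-Chir length. The top summits lay 14 bp apart, with 52 reads in Boost-Chir (exact 95% Poisson interval 38.8 to 68.2) and 44 reads in Low-Chir (32.0 to 59.1). Summit reads given for single genes are not adjusted for depth, which was estimated at 1.21-fold that of Low-Chir in the Boost-Chir H3K4me3 library. IRX5 was the only window of the 6 in which H3K4me3 was shorter in Boost-Chir, by 676 bp, a ratio of 0.945.

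IRX3, known in the mouse and chick neural tube for setting a border between ventral progenitor domains in opposition to Olig2, had 1 broad H3K4me3 peak in each culture. Within chromosome 16 at 54307001 to 54331000 the covered length was 8.02 kb in Boost-Chir and 6.91 kb in Low-Chir, a ratio of 1.16, and the broad peak measured 6.25 kb in Boost-Chir and 5.92 kb in Low-Chir. These broad peaks were longer than 99.4% of the Boost-Chir list and 99.8% of the Low-Chir list. The top summit held 49 reads in Boost-Chir (36.3 to 64.8) and 33 in Low-Chir (22.7 to 46.3), and these intervals overlap.

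IRX1, whose frog homolog takes part in forming the neural plate, had the greatest relative difference in H3K4me3 length among the genes. Its window spans 3586001 to 3612000 of chromosome 5, of which H3K4me3 covered 8.75 kb in Boost-Chir and 6.73 kb in Low-Chir, a ratio of 1.30. In Boost-Chir the main peak ran unbroken for 6.08 kb, from 3593873 to 3599951, where Low-Chir had separate peaks of 1604, 3016 and 424 bp. The top summit held 52 reads in Boost-Chir (38.8 to 68.2) and 38 reads in Low-Chir (26.9 to 52.2).

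IRX2, which in the chick acts with FGF8 signalling in cerebellum formation, had a more broken pattern, with 8 H3K4me3 peaks in Boost-Chir and 13 in Low-Chir on chromosome 5 at 2735001 to 2762000. They covered 9.25 kb in Boost-Chir and 7.86 kb in Low-Chir, a ratio of 1.18, although the number of peaks was the lower one in Boost-Chir. The top summits lay 223 bp apart, with 51 reads in Boost-Chir (38.0 to 67.1) and 35 in Low-Chir (24.4 to 48.7). The Low-Chir list also held a 0.686 kb peak at 2739323 to 2740008 without a Boost-Chir H3K4me3 peak over it, and most of that peak lay under H3K27me3 of Low-Chir.

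IRX4, a regulator of ventricular identity in the chick and mouse heart, was almost without H3K4me3. Between 1867001 and 1898000 of chromosome 5, Boost-Chir had 1 peak of 0.362 kb at 1887066 to 1887427 and Low-Chir 1 peak of 0.319 kb at 1883441 to 1883759. The summits held 12 reads in Boost-Chir (6.20 to 21.0) and 13 in Low-Chir (6.92 to 22.2), and they lay 3.74 kb apart, so that no base was shared. Both peaks ranked low in their lists, with a fold enrichment above 18.7% of the Boost-Chir list and 35.1% of the Low-Chir list.

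IRX6, which in mouse takes part in forming a type of retinal bipolar cell, had short H3K4me3, most of it under H3K27me3 in both cultures. The window, 55348001 to 55375000 of chromosome 16, held 2.05 kb of the mark in Boost-Chir and 1.86 kb in Low-Chir. This ratio of 1.10 turned to 0.991 with lists of equal length and to 0.855 with peaks within 1 kb joined. The top summit held 20 reads in Boost-Chir (12.2 to 30.9) and 18 in Low-Chir (10.7 to 28.4), below the top summits of IRX1, IRX2, IRX3 and IRX5 in each culture. Its fold enrichment stood above 63.7% of the Boost-Chir list and 58.3% of the Low-Chir list.

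**Figure D2:**
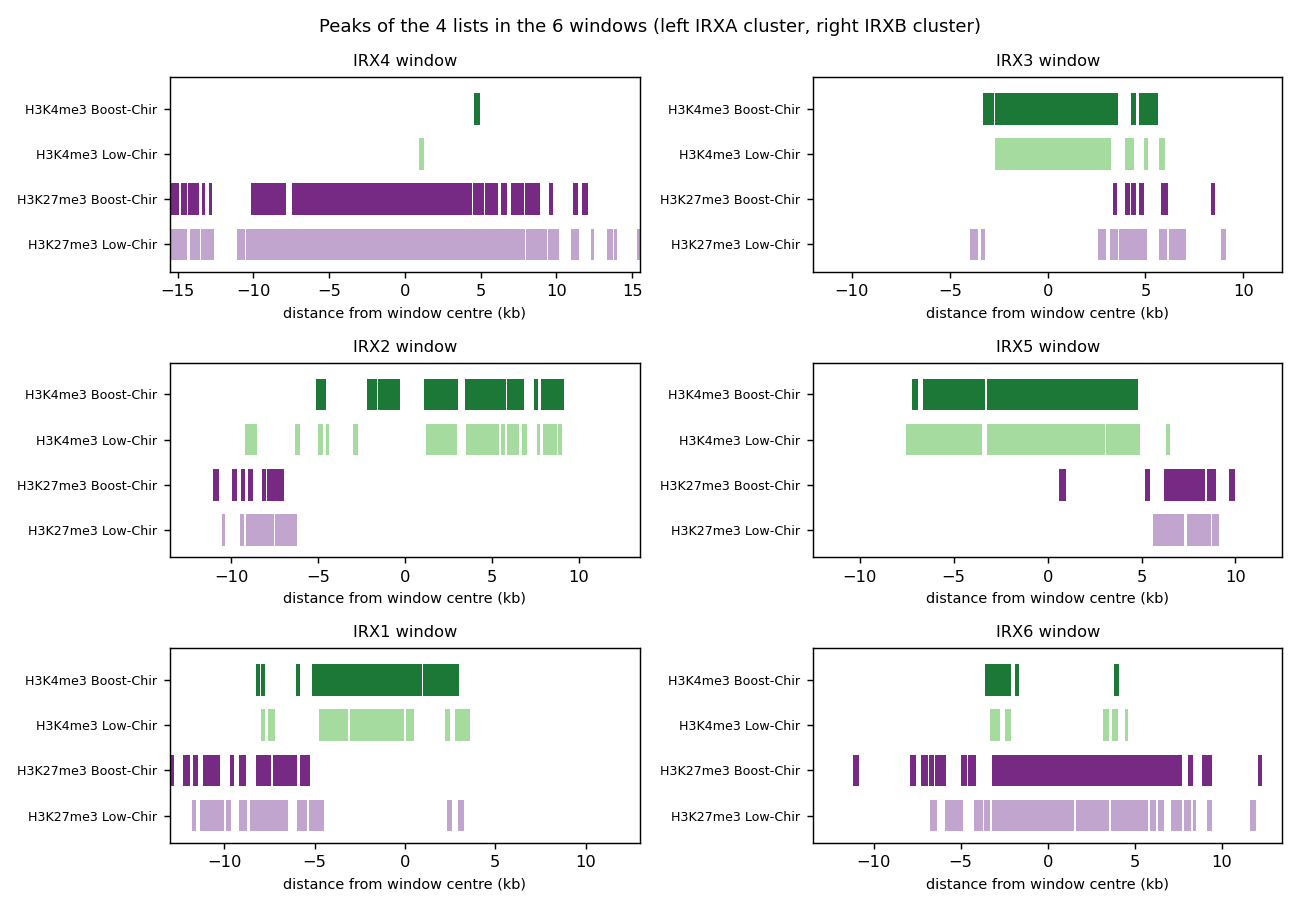
Peaks of the 4 lists in each window (rows, Boost-Chir above Low-Chir for each mark) against the distance from the window centre in kb. H3K27me3 fills 67.7% of the IRX4 window in Boost-Chir and 81.5% in Low-Chir. It lies mainly to 1 side of H3K4me3 at IRX2, IRX1, IRX3 and IRX5.

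H3K27me3 was longest at IRX4. It covered 21.0 kb of the window in Boost-Chir and 25.3 kb in Low-Chir, a ratio of 0.830, with a longest peak of 11.9 kb in Boost-Chir and 18.4 kb in Low-Chir. The domain passed the edge of the window, and with peaks joined within 3 kb it spanned 28.3 kb in Boost-Chir and 35.9 kb in Low-Chir. Of the Low-Chir length in the window, 80.7% was also under a Boost-Chir peak, and 4.88 kb was not. The top summits lay 7.49 kb apart and held 36 reads in Boost-Chir (25.2 to 49.8) and 44 in Low-Chir (32.0 to 59.1). Their fold enrichment, the authors' value over local background, stood above 99.4% of the Boost-Chir list and 99.8% of the Low-Chir list.

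At IRX6, H3K27me3 covered 14.8 kb in Boost-Chir and 13.7 kb in Low-Chir, a ratio of 1.08. A single peak of 10.9 kb ran through the window in Boost-Chir. In Low-Chir the same stretch was covered by separate peaks of 4.69, 1.90, 2.10, 0.362, 0.368 and 0.635 kb. The shared length was 11.2 kb, or 75.5% of the Boost-Chir and 81.7% of the Low-Chir length. The top summits lay 3.26 kb apart and held 38 reads in Boost-Chir (26.9 to 52.2) and 40 in Low-Chir (28.6 to 54.5). The longer single peak thus did not have more reads at its summit. Local background was 5.12 reads at the Boost-Chir summit and 3.12 at the Low-Chir summit. Fold enrichment was 6.36 in Boost-Chir, above 93.2% of its list, and 9.73 in Low-Chir, above 99.4% of its list.

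The window of IRX3 had the greatest difference in H3K27me3 length in relative terms. Peaks covered 1.51 kb in Boost-Chir, in 6 peaks of at most 0.360 kb, and 4.37 kb in Low-Chir, in 8 peaks of up to 1.40 kb, a ratio of 0.346. Of the Low-Chir length, 29.9% was also under a Boost-Chir peak. The longest Low-Chir peak, at 54322670 to 54324072, was met in Boost-Chir by small peaks of 0.245, 0.262 and 0.228 kb. The top summit held 22 reads in Boost-Chir (13.8 to 33.3) and 30 reads in Low-Chir (20.2 to 42.8), intervals that overlap, and these summits lay 1.57 kb apart.

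At the other H3K4me3-marked genes the lengths were closer. IRX1 had 5.11 kb of H3K27me3 in Boost-Chir and 6.54 kb in Low-Chir, a ratio of 0.780. IRX2 had 2.36 kb in Boost-Chir and 3.32 kb in Low-Chir, a ratio of 0.712. IRX5 had 3.68 kb in Boost-Chir and 3.35 kb in Low-Chir, a ratio of 1.10. The Boost-Chir length was thus the shorter one at IRX4, IRX2, IRX1 and IRX3 and the longer one at IRX5 and IRX6, so that all 3 genes of IRXA and 1 of IRXB had less. A shorter length in Boost-Chir was also found at 61.4% of 25 kb tiles of the genome that held the mark. With the top 50% of each list by q-value the direction turned at IRX1 (1.05) and at IRX5 (0.989). For IRXA the sums were 28.4 kb in Boost-Chir and 35.1 kb in Low-Chir (ratio 0.810), and for IRXB 20.0 kb in Boost-Chir and 21.4 kb in Low-Chir (ratio 0.934).

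The sizes of the differences were read against the same tiles. A window or tile was called when the covered length differed by at least 1.5-fold and 1 kb. For H3K27me3, 1 of 6 windows was called lower in Boost-Chir, IRX3, against 20.8% of 4462 tiles with at least 1 kb of the mark, and 0 of 6 were called higher, against 10.8%. For H3K4me3, 0 of 6 windows were called higher, against 20.3% of 13251 tiles, and 0 were called lower, against 1.24%. IRX4 holds too little H3K4me3 to be called. The members' counts were near or under the background. Stricter lists added calls at IRX2 and IRX1. With the top 50% of each list by q-value, both were called higher for H3K4me3 (25.6% of tiles) and IRX2 was called lower for H3K27me3 beside IRX3 (24.8% of tiles). With a −log10 q of at least 5, both were called higher for H3K4me3 (21.8%) and both lower for H3K27me3, beside IRX3 (28.0%). With lists of equal length, IRX2 and IRX3 were called lower for H3K27me3 (21.6%). The median ratio of Boost-Chir to Low-Chir length was 0.916 over the H3K27me3 tiles, and the sum over the 6 windows had a ratio of 0.857 (48.4 kb in Boost-Chir, 56.5 kb in Low-Chir). For H3K4me3 the median tile ratio was 1.29 and that of the windows' sum 1.11 (40.1 kb in Boost-Chir, 36.1 kb in Low-Chir). Boost-Chir had the longer H3K4me3 at 85.2% of tiles and at 5 of 6 windows, the exception being IRX5. Sequencing depth, taken as the genome-wide background estimated from the peak lists, was 1.21-fold that of Low-Chir in the Boost-Chir H3K4me3 library. In the H3K27me3 library it was 0.971-fold. With the Boost-Chir H3K4me3 list reduced to the calling depth of the Low-Chir list, which kept 45554 of its 46793 peaks, the ratio over the windows was 1.11. This reduction removed whole peaks and left the edges of the others unchanged, so it cannot show how depth affects lengths. The part of depth in the lengths was not tested for either mark.

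**Figure D3:**
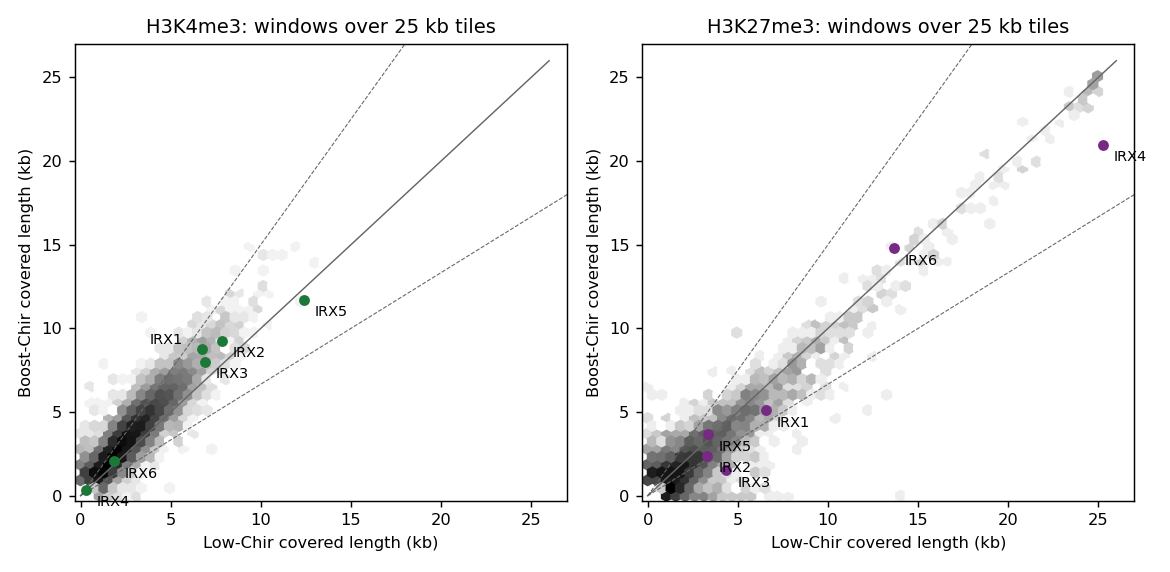
Length under peaks in Boost-Chir (y axis, kb) against Low-Chir (x axis, kb) for all 25 kb tiles with at least 1 kb of the mark (grey, darker for more tiles on a log scale) and for the 6 windows (points). The solid line is equality and the dashed lines are 1.5-fold. Only IRX3 lies past a dashed line with a difference of at least 1 kb, for H3K27me3, with 1.51 kb in Boost-Chir and 4.37 kb in Low-Chir.

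Read counts at the summits allowed a comparison that does not rest on where a peak ends. Each list has its own top summit, so the ratios do not always compare the same position. For H3K27me3 the top summits lay 7.49 kb apart at IRX4, 3.26 kb at IRX6 and 2.58 kb at IRX1. They lay 1.57 kb apart at IRX3, 0.276 kb at IRX5 and 0.100 kb at IRX2. Reads above background at the top summit of each window were divided by the estimated genome-wide background of the library. For H3K27me3 this summit enrichment was lower in Boost-Chir at 5 of 6 windows, with Boost-Chir to Low-Chir ratios of 0.722 at IRX3, 0.829 at IRX4, 0.844 at IRX5, 0.891 at IRX1, 0.918 at IRX6 and 1.04 at IRX2. The median ratio over 5064 tiles with a summit in both lists was 0.926, with quartiles of 0.798 and 1.08. The ratio was below 1 at 64.0% of these tiles. The IRX3 ratio lay below the lower quartile, and the other 5 lay between the quartiles.

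For H3K4me3 the summit enrichment was higher in Boost-Chir at 3 of 6 windows. The ratio was 1.22 at IRX3 (17.0 in Boost-Chir, 13.9 in Low-Chir), 1.19 at IRX2 (17.7 in Boost-Chir, 14.8 in Low-Chir) and 1.14 at IRX1 (18.5 in Boost-Chir, 16.2 in Low-Chir). It was 0.980 at IRX5, 0.912 at IRX6 and 0.713 at IRX4, where it rests on 12 and 13 reads. The summits compared lay 3.74 kb apart at IRX4, 1.44 kb at IRX3 and at most 0.649 kb at the other genes. Over 14475 tiles the median ratio was 1.08, with quartiles of 0.938 and 1.24, and the ratio was below 1 at 35.1% of them. The genes other than IRX4 and IRX6 were thus inside the middle range of the genome. For every gene and mark the 95% intervals of the reads overlapped between the cultures.

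**Figure D4:**
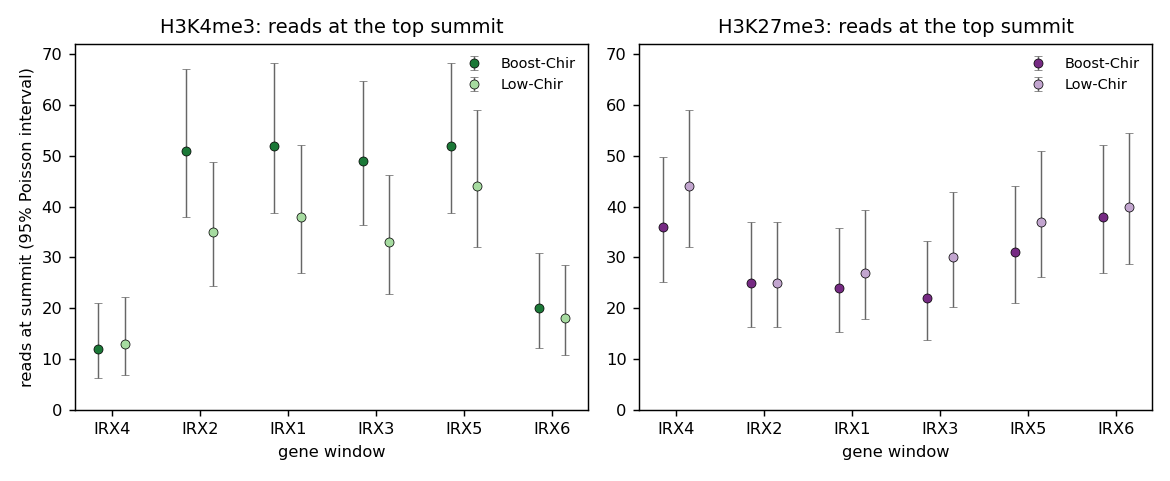
Reads at the summit of the peak with the highest fold enrichment in each window (y axis), with exact 95% Poisson intervals that cover counting error only, for Boost-Chir and Low-Chir. H3K4me3 summits of IRX2, IRX1, IRX3 and IRX5 hold 49 to 52 reads in Boost-Chir and 33 to 44 in Low-Chir, and the intervals overlap for each gene. The counts are not adjusted for depth, which was estimated at 1.21-fold that of Low-Chir in the Boost-Chir H3K4me3 library.

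At the H3K4me3-marked genes, more than 50% of the H3K27me3 lay outside H3K4me3 peaks in each culture. At IRX2 all 2.36 kb of H3K27me3 in Boost-Chir and all 3.32 kb in Low-Chir lay below the longest H3K4me3 peak, that is, toward the start of chromosome 5. At IRX1 this was so for all 5.11 kb in Boost-Chir and for 5.87 of 6.54 kb in Low-Chir. On chromosome 16 the side was the opposite one. At IRX3, 1.29 of 1.51 kb in Boost-Chir and 3.28 of 4.37 kb in Low-Chir lay above the longest H3K4me3 peak, and at IRX5 3.26 of 3.68 kb in Boost-Chir and all 3.35 kb in Low-Chir. Most H3K27me3 at these genes thus lay on 1 side of the longest H3K4me3 peak. In chromosome coordinates it was the same side for both genes of a cluster. IRX2 is on the minus strand and IRX1 on the plus strand, so relative to transcription their sides differ. In Low-Chir there was also H3K27me3 on the other side at IRX1 (0.671 kb) and at IRX3 (0.651 kb). At IRX3, 45.2% of the H3K27me3 in Boost-Chir and 30.9% in Low-Chir was under an H3K4me3 peak.

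Bases under both marks were fewer in Boost-Chir at IRX1, IRX2, IRX3 and IRX6. The share of tiles with fewer such bases was not computed. Over the 6 windows they came to 3.60 kb in Boost-Chir and 5.83 kb in Low-Chir, a ratio of 0.617. IRX1 had 0.526 kb in Boost-Chir and 1.42 kb in Low-Chir, IRX3 had 0.684 kb in Boost-Chir and 1.35 kb in Low-Chir, and IRX2 had 0 kb in Boost-Chir and 0.765 kb in Low-Chir. IRX5 had 0.412 kb in Boost-Chir and 0.236 kb in Low-Chir, while IRX4 had 0.362 kb in Boost-Chir and 0.319 kb in Low-Chir, which is all of its H3K4me3. IRX6 had 1.61 kb in Boost-Chir and 1.74 kb in Low-Chir, or 78.5% of its H3K4me3 in Boost-Chir and 93.1% in Low-Chir. Stricter lists left less at IRX1 and IRX3. With the top 50% of each list by q-value, Boost-Chir had 0 kb at both, and Low-Chir 0.250 kb at IRX1 and 0.0450 kb at IRX3. With a −log10 q of at least 5, IRX1 had 0.233 kb in Boost-Chir and 0.250 kb in Low-Chir. IRX3 then had 0 kb in Boost-Chir and 0.595 kb in Low-Chir. Of the H3K4me3 length in the windows, 8.96% was under H3K27me3 in Boost-Chir and 16.2% in Low-Chir, against 5.15% in Boost-Chir and 6.65% in Low-Chir over the genome. Of the H3K27me3 length in the windows, 7.42% was under H3K4me3 in Boost-Chir and 10.3% in Low-Chir, against 13.6% in Boost-Chir and 12.2% in Low-Chir over the genome. The genome-wide length under both marks was 2559.3 kb in Boost-Chir and 2561.9 kb in Low-Chir.

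Base by base, few positions had 1 mark in Boost-Chir and only the other in Low-Chir. Of the bases under H3K27me3 alone in Low-Chir, 35.3 kb kept that state in Boost-Chir, 12.5 kb were under neither mark and 1.22 kb were under H3K4me3 alone. Of the bases under H3K4me3 alone in Low-Chir, 27.8 kb kept that state and 2.05 kb were under neither mark. Boost-Chir peaks also covered bases that had neither mark in Low-Chir, 6.38 kb with H3K4me3 alone and 7.25 kb with H3K27me3 alone. Of the 5.83 kb under both marks in Low-Chir, Boost-Chir had 1.39 kb under both, 1.17 kb under H3K4me3 alone, 2.30 kb under H3K27me3 alone and 0.984 kb under neither. Most bases that differed thus had a mark in 1 culture and neither mark in the other. In bulk cultures, overlap of the marks on the same DNA molecules and their presence in different cells cannot be told apart.

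Between neighbouring genes of a cluster, H3K27me3 peaks covered at most 0.682% of an interval and H3K4me3 peaks at most 0.178%. These shares were not compared with a genome share, so they do not show that the intervals are poor in either mark. The 837 kb from IRX4 to IRX2 held 4.96 kb of H3K27me3 in Boost-Chir and 5.71 kb in Low-Chir, most of it in a locus at 1926894 to 1934980, 28.9 kb past the IRX4 window, with 3.80 kb in Boost-Chir and 4.60 kb in Low-Chir. The only H3K4me3 peak of that interval was one of 0.276 kb in Low-Chir, inside this locus. The 824 kb from IRX2 to IRX1 held no peak in Boost-Chir and 1 H3K27me3 peak in Low-Chir, which crosses the IRX1 window edge with 0.239 kb outside it. Within the IRXA cluster, most length under either mark thus lay in the gene windows, which held 28.4 kb of H3K27me3 in Boost-Chir and 35.1 kb in Low-Chir.

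In the IRXB cluster, the 623 kb from IRX3 to IRX5 held 0 kb of H3K27me3 in Boost-Chir and 2.43 kb in Low-Chir, in 6 peaks at 54458057 to 54462678 with a highest fold enrichment of 5.71 in the Low-Chir list. This locus lies 127 kb past the IRX3 window. The only H3K4me3 peak of the interval was one of 0.375 kb in Boost-Chir at 54611216 to 54611590. The 369 kb from IRX5 to IRX6 held a small locus with both marks near 55090404 to 55092304, with 0.625 kb of H3K4me3 in Boost-Chir and 0.655 kb in Low-Chir, and 1.11 kb of H3K27me3 in Boost-Chir and 0.429 kb in Low-Chir. In RefSeq order (GRCh38.p14) no other named protein-coding gene lies between the members of either cluster, where FTO precedes IRX3 and MMP2 follows IRX6.

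Set against other tiles that held the same mark, the windows were long in the mark with the greater covered length. That mark was picked by these same lengths, so high ranks were in part fixed by the choice. By the share of the window covered, H3K4me3 at IRX1, IRX2, IRX3 and IRX5 exceeded 96.7% to 99.3% of 12926 tiles in Boost-Chir and 96.0% to 99.8% of 12011 tiles in Low-Chir. H3K27me3 at IRX4 exceeded 95.5% of 3710 tiles in Boost-Chir and 97.0% of 3948 tiles in Low-Chir, and at IRX6 93.3% in Boost-Chir and 91.6% in Low-Chir. The windows are centred on genes and the tiles are not, so these ranks describe length and are no comparison with other genes. In the same terms all H3K27me3 in the IRX3 window exceeded 19.3% of tiles in Boost-Chir and 64.8% in Low-Chir.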

How the data were processed

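The windows, members and lists were chosen with earlier results of these data known. The submitters' processing notes name cutadapt 1.6, BWA 0.7.12, Picard and build hg19. Which program called the peaks, and at which threshold, is not given in the sources used here. The names of the deposited peaks pair each antibody library with the input of the same culture, with 1 library per list. The deposited lists hold, for each peak, a fold enrichment (a ratio over local background), the −log10 of a p-value and of a q-value, and positions, which are given here counted from 1.

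Covered lengths were computed with Python 3.11.15, numpy 2.4.6 and scipy 1.17.1 and plotted with matplotlib 3.10.9. The code was checked on simulated data. All 6 genes were named. A difference was called at 1.5-fold and 1 kb of covered length, as a description with no test. The lists state no read depth. Reads at each summit were solved from the fold enrichment and the p-value, assuming (reads + 1) over (background + 1) and a Poisson tail, and this returned the deposited −log10 p-value within 0.001 for 100% of peaks of each list. Genome-wide background was not measured from reads. It was estimated as the 1st percentile of the local backgrounds solved at the summits of a list. For H3K4me3 it was 2.67 reads in Boost-Chir against 2.21 in Low-Chir. For H3K27me3 it was 3.03 reads in Boost-Chir against 3.12 in Low-Chir. Intervals are exact Poisson intervals at 95% and cover counting error only. They do not allow for the choice of the top summit in a window. Promoter sequences were matched by symbol from RefSeq (GRCh38.p14) for 3 of the 6 genes. The others were IRX3, IRX5 and IRX6. Alternatives were tried for the peak threshold, list length, window edges, joining of peaks, genes included and depth.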

Additional observations from a re-analysis of the deposited data

How the results depend on the processing

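No paired analysis was possible because no mark had more than 1 library in a culture. The ratio of Boost-Chir to Low-Chir length over the 6 windows kept its direction under all alternatives run, between 0.785 (without IRX6) and 0.927 (peaks within 1 kb joined) for H3K27me3, between 1.05 and 1.31 for H3K4me3 and between 0.485 and 0.710 for bases under both marks. IRX3 stayed called lower for H3K27me3 under all 7 alternatives of peaks and windows, with ratios of 0.210 to 0.540. Calls differed at other genes. The count called lower for H3K27me3 was 2 with the top 50% of each list or with lists of equal length and 3 with a −log10 q of at least 5, and the count called higher for H3K4me3 was 2 with the top 50% and with a −log10 q of at least 5. The cause was not tested. Some directions turned at single genes. For H3K27me3, IRX1 had 1.05 and IRX5 0.989 with the top 50% of each list, and IRX5 0.885 with a −log10 q of at least 5. For H3K4me3, IRX6 had 0.991 with the same number of peaks and 0.855 with peaks within 1 kb joined. For both marks, IRX6 had 1.28 with the top 50% and 1.24 with a −log10 q of at least 5. A common calling depth, chosen after seeing the data, gave 1.11 for H3K4me3. It removed whole peaks and left the edges of the others unchanged, so this value is no check of depth in the lengths. For H3K27me3 it kept 26252 of 26260 Boost-Chir peaks, so that the value of 0.857 is no check of depth for that mark. With tiles of 31 kb, or 25 kb tiles moved by 12.5 kb, also chosen afterwards, the share called lower for H3K27me3 was 20.7% and 20.4%, and over tiles with at least 10 kb it was 13.1%. Bounds of lengths follow peak edges, which depend on depth and threshold, and summit counts of 12 to 52 reads leave wide intervals.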
